A study of Arabidopsis thaliana with 4 samples.

Results

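The 64 successive plates TB50 to TC13 of a printed 2-colour array were examined, with 6080 of the array's 21732 measured DNA features. Each feature, called a tile here, is named by a plate and well code, so that TB64E05 is plate TB64, row E, well 5. The tiles were chosen by their codes alone, as all codes of 50 TB plates and 14 TC plates with a value on every array, and 6080 of 6082 listed codes met this. The tiles without a value were TB58C08 and TC07G09. Plate TC13 was listed with only 34 tiles, from TC13A01 to TC13C10, and 61 plates had all 96 wells measured.

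The samples were seedlings of Arabidopsis thaliana, ecotype Col-0, 10 days old and grown in liquid medium with no treatment. Chromatin was precipitated with an antibody against histone H3, and the recovered DNA was hybridised together with its own input DNA. There was 1 group with 2 replicates, each hybridised on 2 arrays with the dyes exchanged, and no mutant, treated or mock-precipitated group. Whole seedlings were used, so each value is an average over all their cell types, and the labels do not say whether the replicates came from separate cultures. The p-values below therefore rest on the spread between these replicates, which may be technical. For single tiles that spread is pooled over all features.

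Histone H3 is a core histone around which, with its partners, DNA is wrapped into nucleosomes. An antibody against H3 itself, whatever its modifications, is generally used to map how densely nucleosomes occupy DNA. In plants and other eukaryotes nucleosome density is known to be low just upstream of active genes and high in compact, silent chromatin. The published project behind this series is known for an array of tiles along chromosome 4, which is background here: none of the 6080 codes matched the gene table used (0 of 6080), so no tile is given a gene or a position.

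The deposited value of a tile is a ratio score between precipitate and input. The arrays of each dye swap held identical scores at all 21732 features, so a tile had 1 value per replicate and n = 2 throughout. Scores are given minus the median of all features in that replicate, in score units. Which channel is the numerator and the base of the logarithm are not settled by the sources used here. "Above" and "below" thus refer to the score and give no direction for H3 itself.

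Most of these tiles lay close to the array median, with a tail that was longer on the low side. In replicate 1 the lowest tile was at -1.49, the median at -0.03 and the highest at 0.80. In replicate 2 they were at -1.54, -0.05 and 0.92. The middle 50% of tiles ran from -0.16 to 0.08 in replicate 1 and from -0.31 to 0.15 in replicate 2. The spread over tiles was 1.71 times as wide in replicate 2 (SD over tiles 0.32 against 0.19). Across the 6080 tiles Pearson's r between the replicates was 0.80 and Spearman's rho was 0.79, as a description over tiles that share the same arrays. The sign was the same in both replicates at 4833 tiles (79.5%). The replicates were over 0.5 units apart at 98 tiles (1.61%), against 2.44% of all features. The widest gap was at TB93E05, chosen after its values were seen, with 0.24 in replicate 1 and -0.64 in replicate 2.

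**Figure D1:**
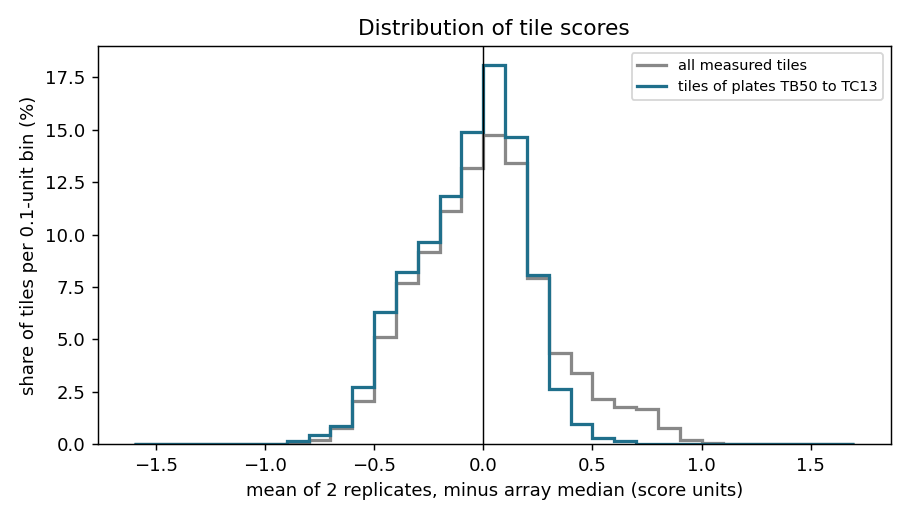
Share of tiles per 0.1-unit bin (y axis, %) by the mean of 2 replicates minus the array median (x axis, score units), for plates TB50 to TC13 and for all 21732 measured features, which include them. On the left both outlines run close together, and on the right the tail of plates TB50 to TC13 ends at 0.74.

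With median centring and a constant variance prior, calls were more frequent below the median than above it. With limma's moderated test over all 21732 features and Benjamini-Hochberg adjustment at 5%, 1346 of the 6080 tiles (22.1%) were called below and 384 (6.32%) above. Over the whole array the same test called 19.4% below and 17% above. The other 4350 tiles (71.5%) were not called. The share below was thus near that of the array, while the share above was under it. The array includes plate ranges with higher medians, and their tiles count in its shares. TA35 to TA51 had medians of 0.25 in replicate 1 and 0.41 in replicate 2, and TC17 to TC30 had 0.42 and 0.58. The split depends on where zero is set and on the variance model. With limma's trend and robust options together, and zero unchanged, 84 tiles were called above and 12 below, so that 87.5% of calls were above. Calls above made up 22.2% of these calls with median centring, 84.3% without centring (1553 above, 289 below) and 8.76% with each replicate centred on its mode (154 above, 1605 below). The mode exceeded the median by 0.02 units in replicate 1 and by 0.11 in replicate 2.

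The test gave each tile the same standard error of 0.11 units, and the calls closest to the median were at 0.26 and -0.26. The call therefore did not use how far apart the replicates of that tile were. Of the 1730 called tiles, 1728 had the same sign in both replicates, and 1665 lay over 0.1 units from the median on the called side in each replicate. The 2 with opposite signs, TB72B06 and TB93E04, chosen after their values were seen, were at 0.04 in replicate 1 and at -0.59 and -0.76 in replicate 2. Opposite signs in a called tile need replicates over 0.5 units apart, as at 98 of the 6080 tiles. The same sign among called tiles was thus nearly fixed by the threshold. In 56 called tiles the SD between replicates was larger than the distance from the median. Tiles called above had a median of 0.24 in replicate 1 and 0.44 in replicate 2. Tiles called below had a median of -0.28 in replicate 1 and -0.52 in replicate 2. In both directions the called values were thus larger in replicate 2, the replicate with the wider spread.

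Tiles far from the median were mostly low with median centring. The mean of both replicates was at least 0.5 units below the median at 258 tiles (4.24%), against 3.23% of all features. It was at least 0.5 units above at 28 tiles (0.461%), against 6.65% of all features, which include the ranges with higher medians. In replicate 2 alone these counts were 729 below and 130 above, and in replicate 1 alone 95 and 11. They were 44 below and 210 above without centring, and 481 and 11 with centring on the mode. Both replicates were at least 0.5 units away at 83 of the 258 low tiles and at 8 of the 28 high ones. Over all features this was so at 199 of 702 low tiles and at 1029 of 1445 high ones. The low tiles were spread over 60 of the 64 plates, with at most 12 in 1 plate (TB64). The high tiles lay in 13 plates, with 7 in TB63, 6 in TB55 and 4 in TB71. At a distance of 1 unit there were 5 tiles below, against 0.106% of all features, and 0 above, against 0.0874%.

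The lowest tiles were low in both replicates, and some of them were narrow minima. TB94B09 was at -1.49 in replicate 1 and -1.54 in replicate 2, a mean of -1.52 ± 0.04 (SD, n = 2). The tile before it was at -0.46 and -0.68, and the tile after it at -0.58 and -0.50. The means of the next tiles outward were -0.04 and 0.02, so the minimum spanned 3 tiles and ended at the array median on both sides.

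TB69A12 was at -1.38 in replicate 1 and -1.18 in replicate 2, and the means of its neighbours were -0.26 and -0.20. TB50G09 was at -1.02 and -1.22, and its neighbours had means of -0.51 and -0.52. TB72C06 was at -1.25 and -0.80, the least even of the 8 lowest tiles, with an SD of 0.32. Its neighbours had means of -0.30 and -0.25, and TB72C08, further on, was called at a mean of -0.41. TC06F12 was at -0.88 and -1.14, with neighbours at -0.41 and -0.49. At these 5 tiles, the ones at least 1 unit below the median, each neighbour was also below the median but less so.

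The remaining low tiles of the 8 were less deep. TB56C11 was at -0.85 and -1.05, and neither neighbour was called. Close to it TB56C09 and TB56D02 were called, at means of -0.56 and -0.52. TB76D06 was at -0.78 in replicate 1 and -1.01 in replicate 2. The tile before it, TB76D05, was at -0.68 and -1.05, so these tiles formed 1 minimum inside a stretch of 4 called tiles. Beyond the uncalled TB76D07, TB76D08 and TB76D09 were also called, at means of -0.39 and -0.31. The limma adjusted p of the 8 lowest tiles ranged from 4.15e-39 to 8.36e-13. These p-values rest on 1 variance shared by all features.

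Around all 258 tiles at least 0.5 units below, the median scores rose toward the array median within a few tiles. The tile itself was chosen for its value, so only its surroundings are described. The tile before had a median of -0.26 in replicate 1 and -0.48 in replicate 2, and the tile after had medians of -0.24 and -0.48. At a distance of 2 tiles the medians were -0.14 and -0.30 before and -0.13 and -0.29 after. At 3 tiles they were -0.09 and -0.17 before and -0.08 and -0.17 after. The sides were alike, and most of the depth was lost within 3 tiles. Of the 258 tiles, 118 had both neighbours called below, 99 had 1 and 41 had none.

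The highest tiles came mostly from 1 place in plate TB63. TB63F04 was at 0.57 in replicate 1 and 0.92 in replicate 2, a mean of 0.74 ± 0.24 (SD, n = 2), the highest of the 6080 tiles. TB63E10, TB63E11 and TB63E12, which follow each other, had 0.56, 0.56 and 0.52 in replicate 1 and 0.76, 0.80 and 0.82 in replicate 2. TB63F03 was at 0.48 and 0.77. These 5 of the 8 highest tiles lay in 1 stretch, and replicate 2 was the higher replicate at each of them.

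The other three of the 8 stood alone. TB53E01 was at 0.80 in replicate 1 and 0.58 in replicate 2, with neighbours that were not called, at means of 0.25 and -0.12. TB86F06 was at 0.66 and 0.62, directly after a stretch of 6 tiles called below that ended at -0.27. TC13C10, the last tile of the whole range, was at 0.57 and 0.70, and the tile before it had a mean of -0.07. The limma adjusted p of the 8 highest tiles ranged from 8.2e-10 to 3.97e-07.

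Successive tiles called on the same side formed short stretches, and in these calls the long stretches were more often low. A stretch is a row of successive codes, also across plate borders, that a missing tile ends. The 1346 tiles below formed 644 stretches, of which 357 (55.4%) were single tiles. The 384 tiles above formed 246 stretches, of which 162 (65.9%) were single tiles. The median length was 1 on both sides. Low stretches began about every 9.44 tiles, with a median of 4 tiles between one and the next. High stretches were sparser, 1 in 24.7 tiles, with a median of 13 tiles between them and a longest gap of 156. There were 59 low stretches of at least 5 tiles, which held 388 tiles (28.8% of the calls below), and 5 high ones, which held 39 tiles (10.2% of the calls above). Without centring there were 1 low and 55 high stretches of at least 5 tiles, and with trend and robust variance 0 and 3, both settings applied to stretches after seeing the data.

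**Figure D2:**
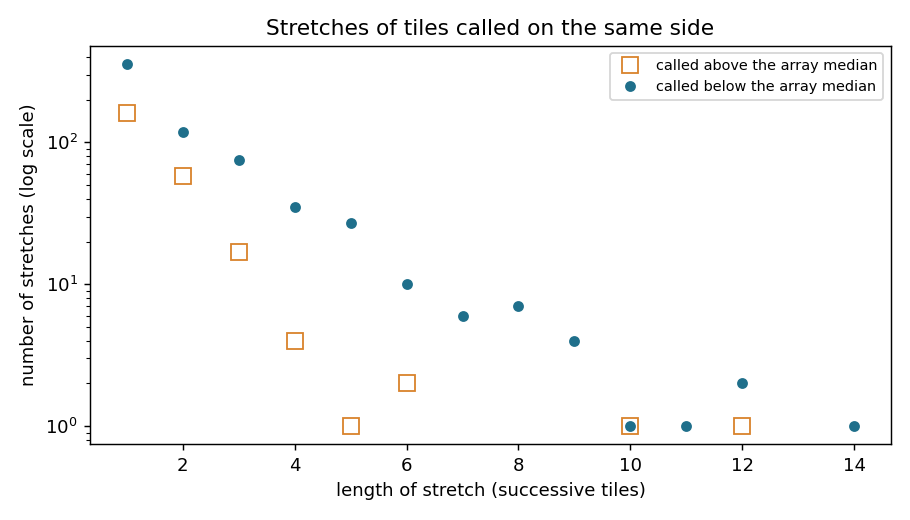
Number of stretches (y axis, log scale) by their length in successive tiles (x axis), for tiles called above (open squares) and below (filled circles) the array median. Single tiles are the most frequent on both sides, with 357 below and 162 above, and the longest stretches have 14 and 12 tiles.

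The longest low stretch was the 14 tiles from TB64D08 to TB64E09. In replicate 1 these tiles lay between -0.55 and -0.12, with a median of -0.27. In replicate 2 they lay between -0.89 and -0.24, with a median of -0.67. All 14 were thus below the array median in both replicates, and their mean was -0.47 ± 0.26 (SD of the replicates' means, n = 2). With trend and robust variance none of these 14 tiles was called. The lowest of its tiles, TB64E05, was at -0.55 and -0.89. The next 2 tiles, TB64E10 and TB64E11, were at -0.02 and 0.07 in the mean. A second low stretch of 8 tiles followed at once, from TB64E12 to TB64F07, with medians of -0.33 and -0.60. Plate TB64 held 5 low stretches of at least 5 tiles, the most of any of these plates. TC03 held 4.

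Low stretches of 12 tiles ran from TB68E07 to TB68F06 and from TB97B09 to TB97C08. The first had medians of -0.23 in replicate 1 and -0.47 in replicate 2, and the second -0.26 and -0.57. The 10 tiles from TB58A01 to TB58A10, the first wells of their plate, had medians of -0.40 and -0.64.

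The longest high stretch was the complete row G of plate TB55, 12 tiles from TB55G01 to TB55G12. In replicate 1 the tiles lay between 0.07 and 0.41, with a median of 0.25. In replicate 2 they lay between 0.48 and 0.89, with a median of 0.68, so that no value of replicate 1 reached the lowest of replicate 2. The mean was 0.46 ± 0.30 (SD of the replicates' means, n = 2). The tile before the stretch, TB55F12, had a mean of 0.002, and the tile after it, TB55H01, a mean of -0.18. The borders thus coincided with both ends of a plate row. The medians over all 755 row G tiles of these plates were -0.04 in replicate 1 and -0.05 in replicate 2. Plate TC13 had no row G.

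The second high stretch had 10 tiles, from TB63E10 to TB63F07, and crossed from row E to row F. Its medians were 0.49 in replicate 1 and 0.70 in replicate 2, and its mean was 0.57 ± 0.16 (SD of the replicates' means, n = 2). The 3 tiles before it were at means of 0.25, 0.28 and 0.26, of which the middle one was called. The tile after it, TB63F08, was at 0.01. These 3 tiles were thus level, and the mean rose to 0.66 at TB63E10, the first tile of the stretch. On the other side the stretch ended within 1 tile. The 6 tiles from TB78E08 to TB78F01 had medians of 0.31 and 0.61, and the 6 from TC03C07 to TC03C12 had medians of 0.32 and 0.57. The fifth high stretch, 5 tiles from TB68G10 to TB68H02, had a median of 0.06 in replicate 1 and 0.55 in replicate 2. Its mean of 0.31 was smaller than the SD of 0.34 between the replicates' means.

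**Figure D3:**
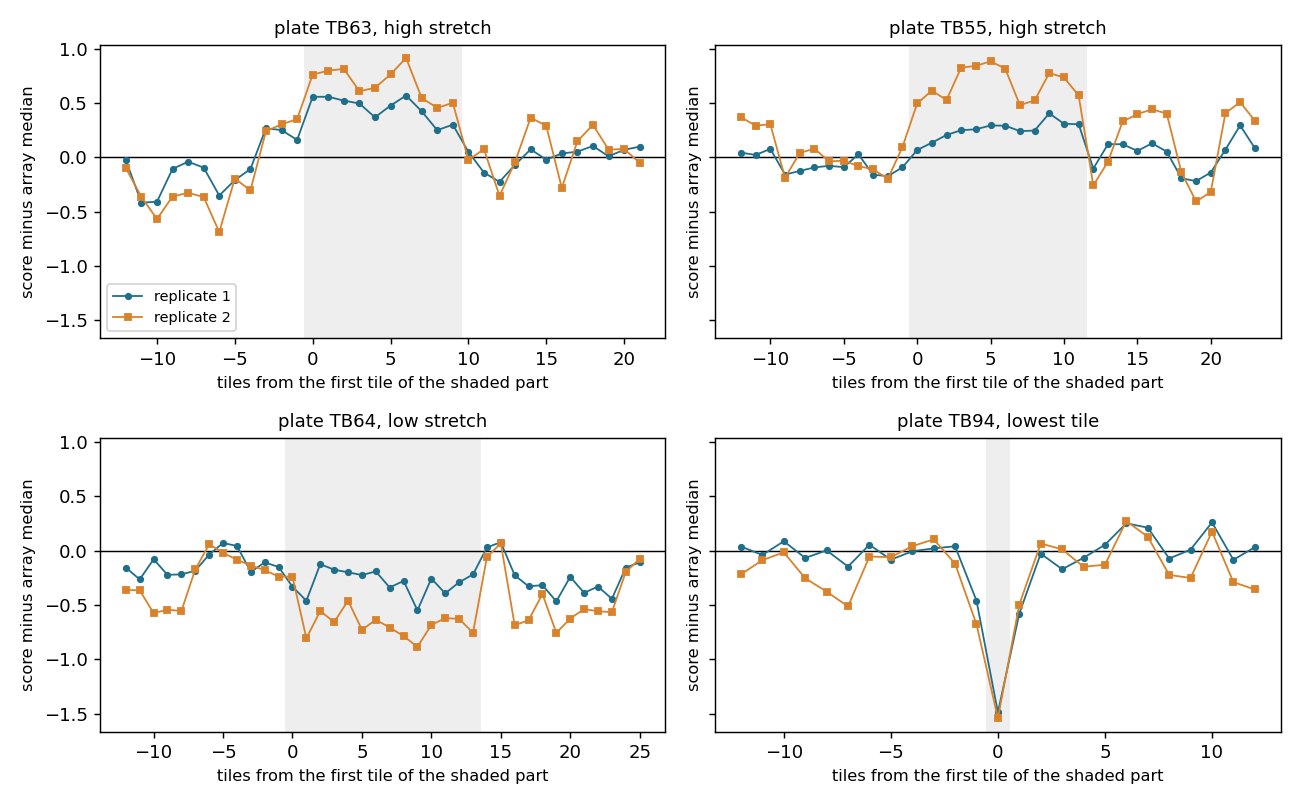
Score minus the array median (y axis, score units) in replicates 1 and 2 for successive tiles (x axis, tiles from the first tile of the shaded part) around 2 high stretches, 1 low stretch and the lowest tile, with 12 tiles on either side. In plate TB94 both replicates fall to -1.49 and -1.54 at 1 tile, and in plate TB55 replicate 2 lies above replicate 1 along the whole shaded row.

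Plate medians lay close to the array median, more of them below it than above. Both replicate medians were below the array median in 39 plates and above it in 14. They were at least 0.1 units below in 9 of the 64 plates, against 18 of all 231 plates (7.79%). They were at least 0.1 units above in 0 of the 64, against 37 of 231 (16%). When the medians of all 231 plates were tested with limma, 0 of these 64 plates passed after Benjamini-Hochberg adjustment. Over the array 3.03% of plates passed above and 0% below. At an unadjusted threshold of 0.05 the same limma test gave 14 of the 64 plates below, against 38 of all 231 plates (16.5%). It gave 1 of the 64 above (TC05), against 42 of 231 (18.2%). The result depends on the centring, the scaling and the summary. Without centring 25 plates passed above and 0 below. With plate means in place of medians 18 plates passed below and 0 above. With both replicates scaled to the same spread 22 passed below and 5 above, and with centring on the mode 19 and 0.

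Among these plates TB64 was the lowest, with a median of -0.17 in replicate 1 and -0.36 in replicate 2, and 51 of its 96 tiles were called below and 3 above. TB99 was at -0.15 and -0.33, with 41 tiles below and 0 above. TB70 was at -0.14 and -0.31, with 46 below and 1 above. TC03 was at -0.11 and -0.31, with 42 below, but it also had 10 tiles above. TB58 was at -0.15 and -0.23, with 39 of 95 tiles below and 0 above. In each of these 5 plates replicate 2 was lower than replicate 1. The limma adjusted p of these plate medians was 0.12 for TB64, 0.13 for TB99 and TB70, 0.14 for TC03 and 0.095 for TB58. The smallest among the 64 plates was 0.094, at TC13, whose 34 tiles had medians of -0.15 and -0.16.

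The highest plate median was that of TC05, at 0.095 in replicate 1 and 0.13 in replicate 2, with 11 tiles called above and 5 below. TB55 was at 0.045 and 0.18, with 18 above and 2 below, and 12 of the 18 were its row G. TB73 was at 0.07 and 0.15, with 7 above and 5 below. TB75 was at 0.07 and 0.15, with 16 above and 12 below, and TB71 at 0.08 and 0.12, with 15 above and 7 below. The limma adjusted p of these 5 plates ranged from 0.135 to 0.195. None of them passed.

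In the calls with median centring, 55 of the 64 plates held more tiles below than above. This was so in 5 plates without centring and in 6 with trend and robust variance, where 54 plates had no tile called below. In 8 plates the calls above were the more frequent (TB55, TB57, TB71, TB73, TB75, TB78, TB84 and TC05), and in TB94 there were 10 of each. With median centring every plate had at least 1 tile called below, with a median of 21.5 per plate. TB58, TB80 and TB99 had none called above, and the median was 5. The calls were not held by a few plates: the 21 plates with the most calls below held 681 of the 1346. The 17 plates with the most calls above held 200 of the 384.

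The plates also differed in how widely their tiles were spread. The interquartile range of the tile means was narrowest in TB80, at 0.18 units, and widest in TB64, at 0.43, with a median of 0.32 over the 64 plates. TB80 had a median of -0.02 in replicate 1 and 0.03 in replicate 2, with 10 tiles below. In TB63 the median was near zero (0.04 and -0.03), although the plate held the highest tile and had 14 tiles above and 19 below. Differences between plates accounted for 9.94% of the variance of the tile means in this range. The remaining variance lay among tiles within plates.

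**Figure D4:**
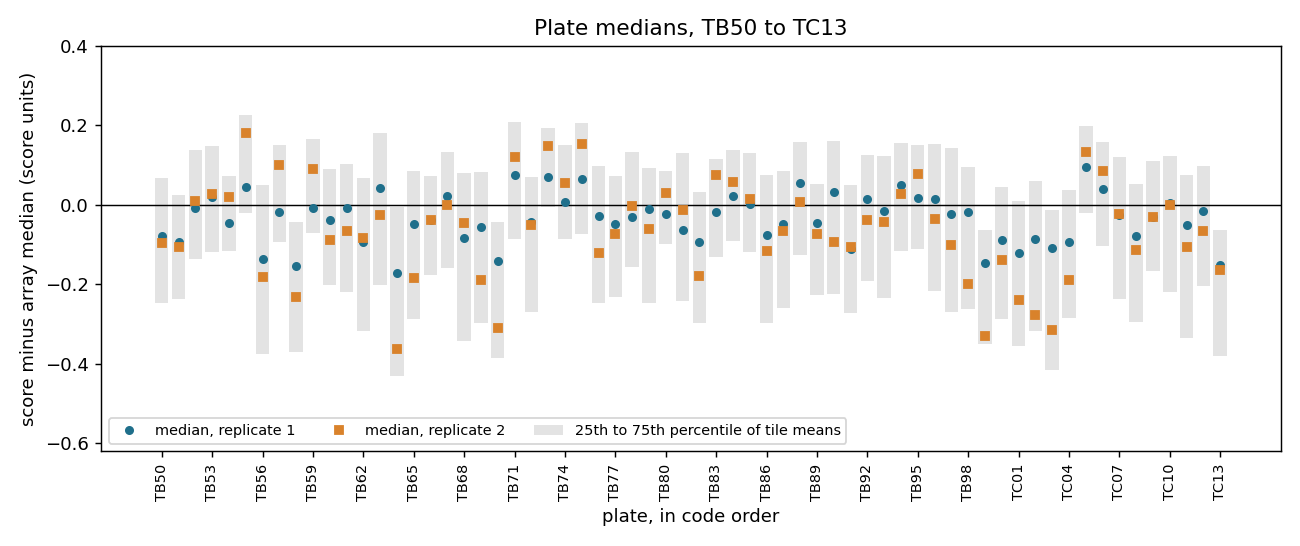
Plate medians in replicate 1 (circles) and replicate 2 (squares), in score units minus the array median (y axis), for the 64 plates in code order (x axis, some plates named). Grey bars span the 25th to 75th percentile of the tile means in a plate, and both medians lie below zero in the 8 plates from TB97 to TC04.

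The longest run of successive plates with both medians below the array median was the 8 plates from TB97 to TC04. On the high side it was 3 plates, TB73 to TB75. The 7 plates from TB98 to TC04, singled out after their values were seen, had a median over their 672 tiles of -0.09 in replicate 1 and -0.22 in replicate 2. In the other 57 plates it was -0.02 and -0.03. In those 7 plates 34.4% of tiles were called below and 5.51% above, against 20.6% and 6.42% in the others. No test was made, because the plates were picked by these values. The run ended at TC05, the plate with the highest median.

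Tiles that follow each other in the code had similar scores. With plate medians removed, Pearson's r between successive tiles was 0.54 for the replicate means (6077 pairs). When a tile in 1 replicate was set against the next tile in the other, so that the values came from different arrays, r was 0.43. It was 0.20 at a distance of 2 tiles, 0.11 at 3 tiles, 0.03 at 6 tiles and -0.00029 at 12 tiles. The last tile of a plate and the first of the next correlated with r = 0.46 over 63 plate borders, and the last and first tiles of successive rows with r = 0.48 over 443 row ends. Tiles in the same well of successive rows, 12 codes apart, correlated with r = 0.0015 over 5310 pairs. These coefficients are descriptions over tiles that share arrays.

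**Figure D5:**
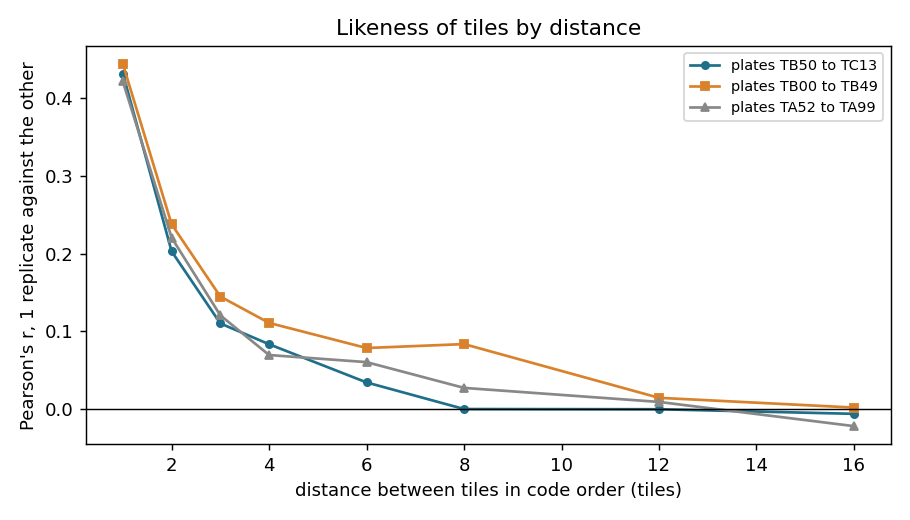
Pearson's r between a tile in 1 replicate and a tile further along in the other (y axis), with plate medians removed, by their distance in tiles (x axis), for 3 plate ranges. In all 3 ranges r falls from between 0.42 and 0.44 at 1 tile to between 0.20 and 0.24 at 2 tiles.

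The medians of rows and wells differed little, while the shares of called tiles varied more. Row medians over these plates ranged from -0.06 (row D) to -0.008 (row C) in replicate 1, and from -0.09 (row D) to -0.015 (row H) in replicate 2. Plate TC13 had tiles in rows A to C only. The share of tiles called below ranged from 19.7% in row C to 26.3% in row D. The share called above ranged from 3.57% in row D to 9.52% in row E. By well number the medians lay between -0.04 and -0.009 in replicate 1 and between -0.07 and -0.03 in replicate 2. The shares by well ran from 4.34% to 8.48% above and from 18.8% to 24.9% below. Row D was thus the lowest row in both replicates, by less than 0.05 units from the next lowest.

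The neighbouring plates TB00 to TB49 (4795 tiles) and the largest TA range, TA52 to TA99 (4602 tiles), had nearly the same median. TB50 to TC13 had medians of -0.030 in replicate 1 and -0.050 in replicate 2, TB00 to TB49 had -0.036 and -0.057, and TA52 to TA99 had -0.024 and -0.062. The difference from TB00 to TB49 was 0.0062 ± 0.0004 (SD, n = 2) units, with a 95% interval of -0.021 to 0.033 and a limma adjusted p of 0.42 over 8 such comparisons. The difference from TA52 to TA99 was 0.0025 ± 0.013 (SD, n = 2) units, with a 95% interval of -0.044 to 0.049 and a limma adjusted p of 0.81. Neither difference passed, and the intervals allow differences of up to 0.049 units. All 8 comparisons use the medians of TB50 to TC13 and are not independent. The largest difference was -0.54 units, from TC17 to TC30, and that from TA35 to TA51 was -0.37. Both had a limma adjusted p of 0.14, and none of the 8 passed.

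The ranges were set side by side in other measures without a test. Tiles called above made up 6.32% of TB50 to TC13, 8.01% of TB00 to TB49 and 12.5% of TA52 to TA99. Tiles called below made up 22.1%, 21.6% and 23.4%. Tiles at least 0.5 units above were 0.461%, 1.21% and 2.85%, and tiles at least 0.5 units below 4.24%, 3.61% and 3.13%. The longest high stretch had 12 tiles in TB50 to TC13, 39 in TB00 to TB49 and 14 in TA52 to TA99. High stretches of at least 5 tiles numbered 0.822, 1.88 and 5.87 per 1000 tiles, and low ones 9.70, 10.0 and 8.26. Tiles at least 1 unit below numbered 5, 0 and 11, and the lowest tile was at -1.52, -0.98 and -2.17. The highest tile was at 0.74, 0.82 and 1.03.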

How the data were processed

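The authors deposited 1 ratio score per feature and array for histone H3 precipitates against their inputs. Tools, normalization, log base, centring, numerator, genome build and tile positions are not given in these sources. Per the labels' protocols, amplified DNA carried Cy3 or Cy5 by direct labelling. The 4 arrays form 1 group, and the labels' replicates I and II are numbered 1 and 2. Values were averaged over each dye swap (identical values), and each replicate was centred on its median over 21732 features (0.23 and 0.13). Each feature, and each of 231 plate medians, was compared with zero by limma 3.58.1 (lmFit, eBayes; R 4.3.3), 2-sided, at 5% after Benjamini-Hochberg adjustment over the whole table. The test was checked on simulated data. Differences between plate ranges were tested with the same functions over 8 differences. Other steps used Python 3.11.15, numpy 2.4.6, pandas 2.3.3 and matplotlib 3.10.9.

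Named tiles are the 8 highest and 8 lowest that passed with the same sign in both replicates, every tile of the longest stretch on each side, and the ends of the next longest. Named plates are the 5 highest and 5 lowest, those with the widest and narrowest interquartile range, and those not full. The plates, rules and tests were chosen with earlier results of these data known. Alternatives covered centring, scaling, quantile normalization, variance model, threshold, summary and left-out replicates. The number of arrays limits the precision.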

Additional observations from a re-analysis of the deposited data

How the results depend on the processing

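The counts of 1346 tiles below and 384 above moved by over 1.5 times without centring (289 and 1553) and with trend and robust variance together (12 and 84). The count above alone moved with centring on the mode (154), quantile normalization (772) and the 1% threshold (184). Scaling to equal median absolute deviation, full plates only, and trend or robust variance alone, the last pair added after seeing the data, kept both counts within 1.5 times. Of the calls, 1338 below and 378 above were shared with the scaled setting. Tiles at least 0.5 units away numbered 258 below and 28 above, 44 and 210 without centring, and 481 and 11 with centring on the mode. With 1 replicate left they ranged from 95 to 729 below and from 11 to 130 above, the higher without replicate 1. Plates that passed numbered 0 on both sides, 25 above without centring, 19 below with centring on the mode, 22 below and 5 above after scaling, and 18 below with plate means. The difference in median from TB00 to TB49 turned to -0.0061 with means of tiles. That from TA52 to TA99 turned to -0.021 with means and -0.00036 after scaling, and neither passed in any setting, including without plates TB98 to TC04, a setting added after seeing the data. The difference from TA52 to TA99 was also below zero without replicate 2 (-0.0066). The settings run for single tiles covered 42 named tiles. These were the 8 highest, the 8 lowest and every tile of the longest stretch on each side, without the ends of the next longest. Of the 42, 0 changed sign, which their choice largely fixed. All had the same sign in both replicates, so leaving out or scaling a replicate could not change it. Variance model and threshold leave the mean as it is. Each mean was at least 0.28 units from zero, more than any change of centre. Without centring 9 lost their call, with centring on the mode 1, at 1% 3, and with trend and robust variance 19, among them all 14 of the longest low stretch, while the 8 highest and 8 lowest tiles kept theirs. Scaling and quantile normalization ended 0 of these calls. The causes were not tested. No paired analysis was possible because there is 1 group. Within plates only, 58 low and 5 high stretches of at least 5 tiles were counted, against 59 and 5.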

Other observations

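Some borders between high and low tiles were sharp in both replicates. They were ranked, after the values had been seen, by the difference between the mean of 5 successive tiles and that of the next 5. At the largest step the tiles TB77F01 to TB77F05 had a mean of 0.09 in replicate 1 and 0.17 in replicate 2, and TB77F06 to TB77F10 had -0.54 and -0.72. The step of -0.76 ± 0.18 (SD, n = 2) units fell between TB77F05, at a mean of 0.03, and TB77F06, at -0.80. At the next one the tiles TC03C08 to TC03C12 had 0.32 and 0.60, and TC03D01 to TC03D05 had -0.22 and -0.33. This border fell at the end of a plate row. The third ran the other way, from -0.16 and -0.38 in TB63E02 to TB63E06 up to 0.36 and 0.49 in TB63E07 to TB63E11. A step at a plate border, from TB57H08 to TB57H12 (-0.006 and 0.19) to TB58A01 to TB58A05 (-0.41 and -0.68), came sixth. No test was made of these steps, since they were chosen for their size.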
